A study of Mus musculus with 4 samples.

Results

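The colon of germ-free mice given an oral gavage of phosphate-buffered saline (PBS), a salt solution with no bacteria in it, was set against the colon of untreated germ-free mice. All mice were C57BL/6 animals 7 weeks of age that carried no microbiota. The gavaged mice were killed 4 h after dosing and 4 cm of colon was frozen for total RNA. The labels give 4 mice for each gavaged group but no number, handling or time of collection for the untreated group, and they do not say whether RNA was pooled. RNA was sequenced in 4 libraries, 1 per condition, and the 2 compared here are those labelled untreated and PBS. The other libraries came from mice given Lactobacillus rhamnosus GG (LGG) or Escherichia coli and their levels are given for reference. Members were the genes with a mean of at least 1 CPM (counts scaled to a common library size) over the 4 libraries, which 14450 of 24016 listed genes reached. Rfx6, with a mean CPM of 1.00, was the named coding gene nearest above that limit, and Fibcd1, with 0.999, the nearest below it.

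With 1 library per condition there is no replicate, so no difference below could be tested between conditions. Every interval in brackets is the 95% interval that counting error alone gives. The untreated library held 27220697 counts, the PBS library 16289580, the E. coli library 29368008 and the LGG library 29899371. A gene with no counts could still have had up to 0.105, 0.187, 0.103 and 0.103 CPM in these libraries, an upper limit set by 3 counts. The summed level of 23 absorptive colonocyte markers was 27840 CPM in the untreated and 34510 CPM in the PBS library, so the markers of the labelled tissue were present in both. The 6 Y-linked genes examined had no count in any library.

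Most genes had nearly the same level in the untreated and the PBS library. The median log2 ratio of PBS over untreated was 0.00, the middle of the distribution ran from -0.17 to 0.13 between its quartiles, and 13059 genes (90.4%) had a ratio within 0.5 of 0. A gene was called past the size rule when it differed at least 2-fold and its counting interval excluded no difference. Of all members, 209 (1.45%) were past the rule, 96 (0.664%) higher and 113 (0.782%) lower in the PBS library, and 7272 (50.3%) had a ratio above 0. The calls differed by abundance. Among the 2287 genes with a mean CPM of at least 100, 11 were higher and 1 was lower. Among the 3416 least abundant coding genes, with a mean CPM between 1.00 and 8.90, 50 were higher and 81 lower, and the median ratio was -0.11 against 0.06 among the 3416 most abundant. At the size limit, Hsh2d (log2 ratio 1.01) lay just inside and Pax5 (0.998) just outside among the higher genes. Eln (-1.002) and Npc1l1 (-0.99) were the corresponding pair among the lower genes.

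**Figure D1:**
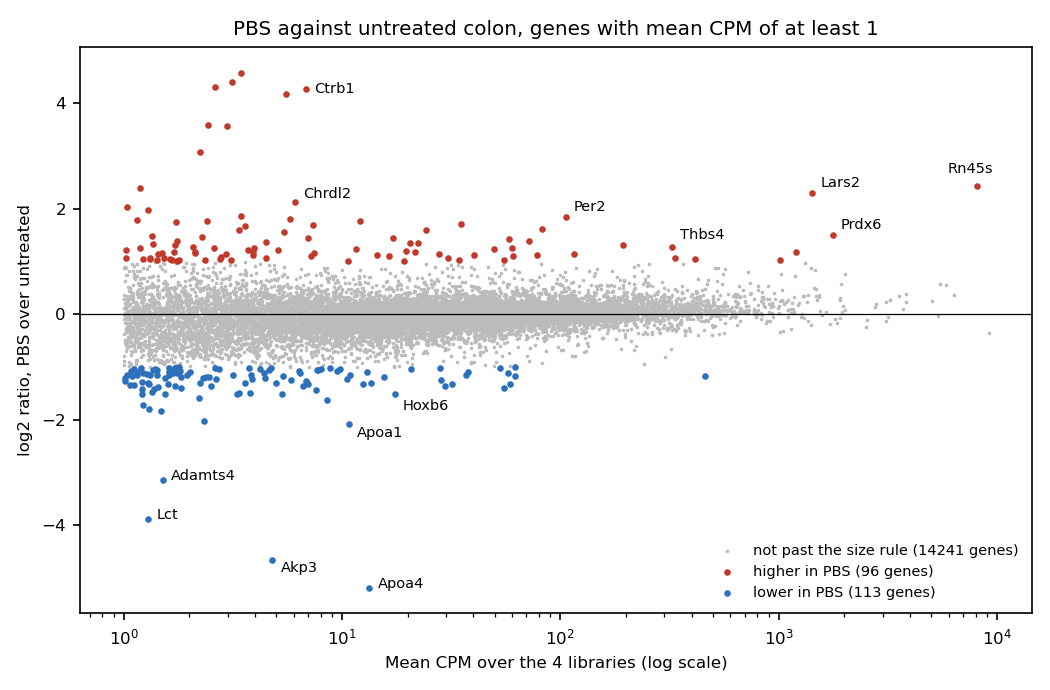
Each point is 1 of the 14450 genes, placed by its mean CPM over the 4 libraries (log axis) and by its log2 ratio of PBS over untreated; red points are the 96 genes higher and blue points the 113 genes lower past the size rule. Most points lie close to 0, Apoa4 is at -5.18 and Per2 at 1.84.

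The circadian clock of the gut is a transcriptional loop that runs in epithelium and muscle. BMAL1 (gene Arntl) with CLOCK or NPAS2 binds E-box elements and drives the genes of its own repressors, the PER and CRY proteins, BHLHE40, BHLHE41 and CIART. A second loop sets Arntl and Npas2, which ROR proteins activate and REV-ERB proteins (genes Nr1d1 and Nr1d2) repress. The output factors DBP, TEF and HLF activate and NFIL3 represses genes through D-box elements. Promoters of members with these elements are shown because Per2 and Cys1, both on the clock lists, were among the 15 coding genes ranked highest. Of 10 listed repressors 4, and of 10 listed output genes 6, were higher past the size rule. The sequences are the RefSeq windows of the mouse build GRCm38.p6, from 250 bases before to 50 bases after the start of transcription. They are read 5′ to 3′ on the gene's strand. Capitals mark the E-box CACGTG or the D-box TTATGTAA. The Ciart window (chr3:95882179-95882478, minus strand) held 3 E-boxes, that of Bhlhe41 (chr6:145865371-145865670, minus strand) 1, the first listed of Tef (chr15:81802423-81802722, plus strand) 1, and that of Per3 (chr4:151044616-151044915, minus strand) 2 D-boxes.
Ciart: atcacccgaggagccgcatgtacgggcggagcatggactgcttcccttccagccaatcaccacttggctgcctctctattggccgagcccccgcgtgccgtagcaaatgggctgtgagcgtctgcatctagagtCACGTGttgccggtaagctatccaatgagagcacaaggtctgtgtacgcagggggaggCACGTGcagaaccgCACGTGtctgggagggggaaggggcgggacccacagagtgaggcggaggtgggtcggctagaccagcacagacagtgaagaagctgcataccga
Bhlhe41: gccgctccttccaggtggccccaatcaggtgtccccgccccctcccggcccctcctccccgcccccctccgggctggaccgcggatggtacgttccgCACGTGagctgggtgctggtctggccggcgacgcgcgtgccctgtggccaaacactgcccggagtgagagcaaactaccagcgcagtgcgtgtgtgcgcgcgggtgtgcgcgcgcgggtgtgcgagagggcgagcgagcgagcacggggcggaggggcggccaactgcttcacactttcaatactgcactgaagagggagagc
Tef: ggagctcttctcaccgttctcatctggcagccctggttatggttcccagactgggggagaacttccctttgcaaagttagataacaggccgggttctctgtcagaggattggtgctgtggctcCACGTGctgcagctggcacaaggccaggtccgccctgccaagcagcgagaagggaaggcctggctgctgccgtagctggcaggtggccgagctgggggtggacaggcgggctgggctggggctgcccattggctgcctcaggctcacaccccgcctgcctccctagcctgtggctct
Per3: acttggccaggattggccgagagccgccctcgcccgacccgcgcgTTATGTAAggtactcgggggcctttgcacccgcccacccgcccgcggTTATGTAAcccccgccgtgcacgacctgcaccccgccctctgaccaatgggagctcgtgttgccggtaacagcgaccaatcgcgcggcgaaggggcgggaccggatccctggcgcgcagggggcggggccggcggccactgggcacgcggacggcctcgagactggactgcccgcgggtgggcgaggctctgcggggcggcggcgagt

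On either strand the E-box was found in 2349 of 32851 RefSeq promoter windows (7.15%) and the D-box in 308 (0.938%), and neither motif contains the other. Of 26 listed clock genes, 22 had a window and could be searched. Per2, Bhlhe40 and Wee1 were among those without one. The E-box was in 7 of them, Bhlhe41, Ciart, Cry1, Lonrf3, Per1, Tef and Tspan4, and the D-box in 1, Per3. The 7 genes with an E-box were not alike in ratio, since Ciart was at 1.45 and Lonrf3, a ubiquitin ligase gene, at 0.04. A match is a description of the letters in these windows and not a measured binding site.

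Clock repressors were higher in the PBS library. Of 10 repressor genes, 9 had a ratio above 0, 4 were past the size rule, all 4 higher, and the median log2 ratio was 0.69 against 0.00 over all genes. Per2, the period gene at the centre of the repressor complex, was at 38.9 CPM without gavage and at 139 (PBS), 128 (E. coli) and 118 CPM (LGG) after it. The untreated library stood alone and the gavaged libraries lay close to each other, and the PBS over untreated log2 ratio was 1.84 (1.73 to 1.94). The same order of low untreated and high gavaged libraries was seen for Ciart (8.06, 22.1, 21.6 and 16.9 CPM) and Bhlhe41 (3.01, 8.23, 8.95 and 7.69 CPM), and for Per3 (31.1, 81.6, 93.2 and 82.9 CPM). Ratios were smaller for Per1 (0.74), Cry1 (0.57) and Cry2 (0.49), which were not past the rule. The REV-ERB genes lay apart, with 174 CPM of Nr1d1 in the untreated and 132 in the PBS library (-0.41, -0.48 to -0.33), but 89.5 and 140 CPM of Nr1d2 (0.65). In the other libraries Nr1d1 had 148 (E. coli) and 89.0 CPM (LGG), so the LGG and not the PBS library was lowest.

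Activators had mostly negative ratios, with 5 of 6 below 0 and a median of -0.31. Arntl had 33.1 CPM in the untreated library and 17.2, 17.1 and 16.4 CPM in the PBS, E. coli and LGG libraries, a log2 ratio of -0.94 for PBS. Npas2, the partner that can replace CLOCK, had 29.5, 14.8, 13.4 and 11.3 CPM and a ratio of -0.99 (-1.21 to -0.78). Both are just short of the size limit, with the untreated library above the gavaged ones. Clock itself had 96.8 CPM untreated and 89.0 CPM with PBS (-0.12). Rora, an activator of the second loop, had 18.2, 12.8, 14.3 and 15.1 CPM (-0.50), again with the untreated library highest.

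Among 10 output genes, 6 were higher and 1 lower past the rule, with a median of 1.13. The 3 related D-box activators had like ratios. Dbp had 41.4, 90.6, 99.1 and 81.2 CPM in the untreated, PBS, E. coli and LGG libraries (PBS ratio 1.13, 1.02 to 1.24), Tef 92.4, 229, 238 and 217 CPM (1.31, 1.24 to 1.38) and Hlf 9.91, 25.3, 22.9 and 23.5 CPM (1.35, 1.13 to 1.58). Nfil3, which represses at the same element, was lower, with 4.69 CPM untreated and 1.99, 1.58 and 2.32 CPM in the gavaged libraries (-1.23). It was low in each gavaged library where they were high. Cys1, the cilium protein cystin, had 4.2, 14.3, 14.7 and 15.2 CPM (1.76, 1.44 to 2.10). The deubiquitinase gene Usp2 (1.13) and the tetraspanin gene Tspan4 (1.18) were the remaining higher genes, and Wee1, a kinase gene that holds cells before mitosis, was at 0.65. The sign of the ratio for Lonrf3 depended on how libraries were scaled. The sources used here do not give the hour of collection.

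**Figure D2:**
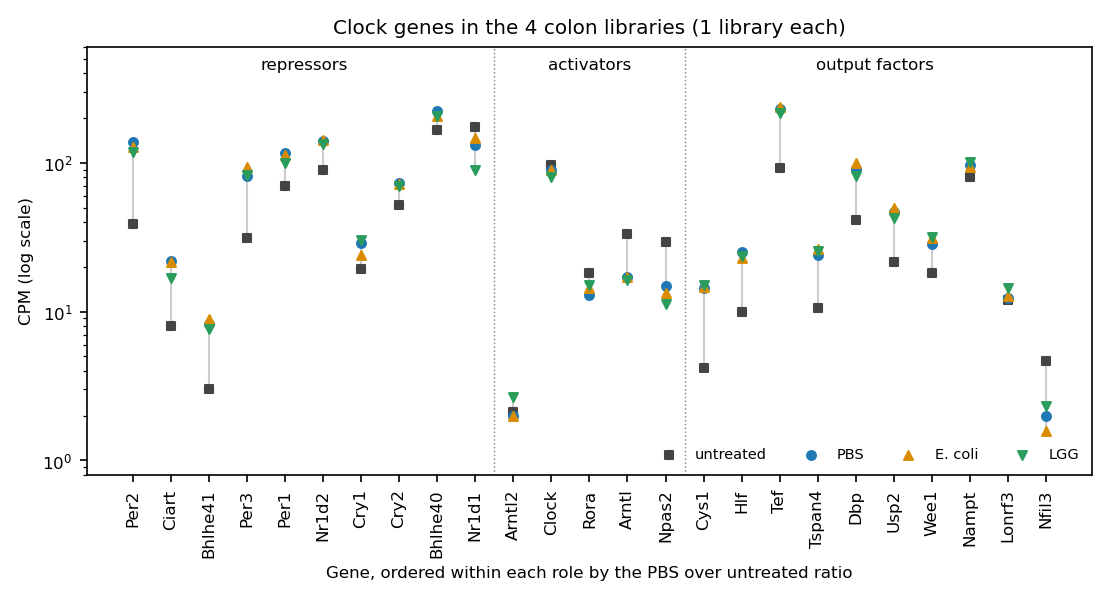
Points give CPM (log axis) of the clock genes shown in the 4 libraries, 1 library per condition and no error bar, ordered within repressors, activators and output factors by the PBS over untreated ratio. Per2 is at 38.9 CPM in the untreated library and between 118 and 139 CPM in the gavaged ones, and Arntl is at 33.1 against 16.4 to 17.2 CPM.

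The small intestine absorbs fat and sugar with brush border enzymes and apolipoproteins that the colon makes at low levels, most of them in its proximal end. These genes were lower in the PBS library. Of 32 listed, 29 were kept, 10 were lower and none higher past the rule, 6 had a ratio above 0, and the median was -0.72. In bulk tissue, fewer cells of a type and less RNA per cell cannot be told apart. Apoa4, an apolipoprotein of chylomicrons, had 45.8 CPM in the untreated library, 1.25 with PBS, 0.310 with E. coli and 5.95 with LGG, and was the member with the lowest ratio (-5.18). The LGG library was the nearest of the gavaged ones to the untreated library for Apoa4 and for the alkaline phosphatase gene Akp3 (14.6, 0.561, 0.0344 and 4.03 CPM). Apoa1, the main protein of high-density lipoprotein, had 19.7, 4.61, 3.17 and 15.5 CPM, with the LGG library close to the untreated one. Lct, the lactase gene, had 3.92 CPM untreated, 0.249 with PBS, 0.172 with E. coli and 0.820 with LGG. It thus passed the expression limit through the untreated library.

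The other members past the rule had less extreme ratios. Slc34a2, an intestinal phosphate carrier, had 104 CPM untreated and 41.8, 36.1 and 53.2 CPM in the PBS, E. coli and LGG libraries, a PBS ratio of -1.31 (-1.43 to -1.19). Treh, the enzyme that splits trehalose, was at -1.82, Mttp, which loads lipid onto apolipoprotein B, at -1.23, and the membrane peptidase gene Mme at -1.19. Members with ratios above 0 included carriers and a binding protein. The peptide carrier gene Slc15a1 had 151 CPM untreated and 269 CPM with PBS (0.83), and Rbp2, a retinol-binding protein, 18.4 and 35.0 CPM (0.93). These last genes, chosen after their values were seen, were not past the rule. Isx, a homeobox factor of the intestinal epithelium that was also chosen after its values were seen, had 104, 46.6, 36.0 and 61.5 CPM (-1.16).

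Absorptive colonocytes take up sodium, chloride and water through exchangers and channels, and carbonic anhydrases supply their acid and base. None of 23 kept colonocyte markers was past the rule, but 19 had a ratio above 0 and the median was 0.22. The members with the highest CPM were Lypd8, a lipid-anchored protein that keeps bacteria off the epithelium (4045 CPM untreated, 6014 CPM PBS), Krt8 (4448 and 5284 CPM) and Krt19 (2779 and 3359 CPM), both keratins of simple epithelium. Larger ratios, chosen after the values were seen, were those of Car4, a carbonic anhydrase (787 and 1535 CPM, 0.96), and Slc26a3, the chloride and bicarbonate exchanger (859 and 1575 CPM, 0.87). Car1, another carbonic anhydrase, was at -0.12, so members of that family differed.

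Among 29 kept ion and water transport genes, 23 had a ratio above 0, the median was 0.33 and 1, Scnn1g, was past the rule. Scnn1g encodes the gamma subunit of the epithelial sodium channel and had 11.8 CPM in the untreated library and 29.9, 29.7 and 17.8 CPM in the PBS, E. coli and LGG libraries (PBS ratio 1.34). The beta subunit gene Scnn1b had 16.4, 27.9, 32.6 and 22.8 CPM (0.77) and the alpha subunit gene Scnn1a 139, 196, 222 and 187 CPM (0.49). The untreated library was the lowest for all 3 subunits and LGG the next. Atp12a, the colonic proton and potassium pump, had 312 and 573 CPM (0.88), and Aqp8, a water channel, was at 0.73, both chosen after their values were seen.

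**Figure D3:**
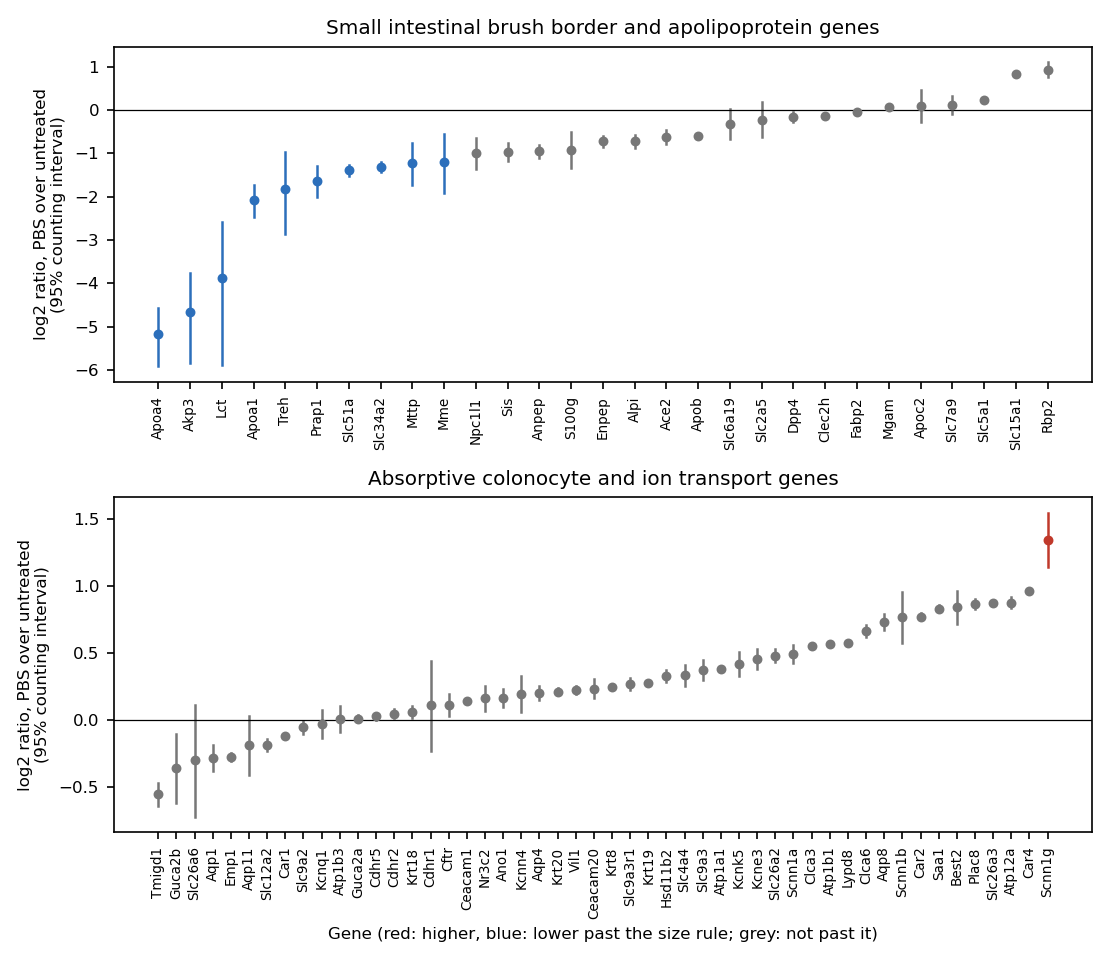
The vertical axis is the log2 ratio of PBS over untreated with its 95% counting interval, for small intestinal genes (top) and for colonocyte and ion transport genes (bottom), ordered by ratio. The top panel reaches -5.18 (Apoa4) with 10 blue genes lower past the rule, and the bottom panel has 1 red gene, Scnn1g at 1.34.

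Hox genes encode the factors that mark position along the body axis, and their order in each cluster follows their order along the gut, with group 13 at the hind end. The middle of the B cluster was lower in the PBS library and its last gene was not. The 7 genes from Hoxb2 to Hoxb8 (chromosome 11, Hoxb7 at 96147960 to 96151477 and Hoxb2 at 96212946 to 96215328 in mm9) had a median ratio of -1.09, all below 0, and 4 were lower past the rule. Hoxb6 had 33.1 CPM in the untreated library and 11.7, 7.95 and 17.0 CPM in the PBS, E. coli and LGG libraries, a PBS ratio of -1.5. Hoxb8 had 22.0, 8.85, 6.95 and 11.9 CPM (-1.31), and Hoxb7 (-1.26) and Hoxb4 (-1.09) were the remaining genes past the rule. In each, the untreated library was highest and the E. coli library lowest. Hoxb9 had 87.1, 83.1, 87.4 and 87.6 CPM (-0.07), and Hoxb13 134, 248, 286 and 203 CPM (0.89, 0.83 to 0.95), the untreated library being lowest. Within 1 cluster the ratios therefore ran from -1.5 to 0.89.

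The D cluster had a like split. Its 5 kept genes from Hoxd3 to Hoxd10 were all below 0, with a median of -0.84 and 1, Hoxd4 (-1.08), past the rule. Hoxd3 and Hoxd4 overlap in the annotation, so their reads may be shared. Hoxd13 had 21.2, 24.9, 39.1 and 15.4 CPM (0.23), with the LGG library lowest. The A cluster showed no such pattern, since its 10 kept genes ran from -0.24 to 0.34 with a median of 0.13. The 3 kept genes of paralogue group 13 were all above 0 (median 0.27). Markers of the proximal colon, which include 3 of these Hox genes and Apoa1 and Apoa4, counted 5 lower and 1 higher of 17, with a median of -0.12. The higher one, Ggh, a hydrolase of folate polyglutamates, had 193 CPM untreated and 404 CPM with PBS. Of 14 kept distal markers 11 had a ratio above 0 (median 0.27), and the 1 past the rule was Scnn1g, named above. Both position lists thus repeat genes reported above. The part of these position markers in the ratios of the small intestinal genes was not tested.

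**Figure D4:**
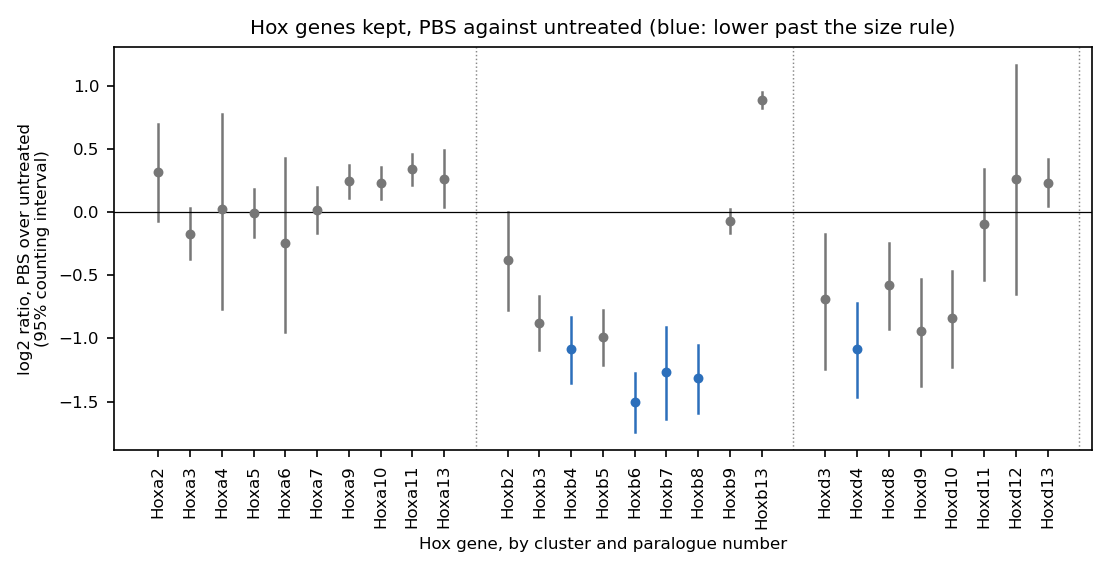
Points are log2 ratios of PBS over untreated for each kept Hox gene with the 95% counting interval, ordered by cluster and paralogue number. Hoxb4, Hoxb6, Hoxb7, Hoxb8 and Hoxd4 are blue (lower past the rule, -1.08 to -1.5), Hoxb13 is at 0.89, and A cluster genes stay between -0.24 and 0.34.

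Secretory and endocrine cells of the epithelium differed from each other. Goblet cells make the mucus gel, and none of 19 kept goblet markers was past the rule (13 above 0, median 0.21). Muc2, the gel-forming mucin, had 10513 CPM untreated and 8281, 8174 and 9720 CPM in the PBS, E. coli and LGG libraries (-0.34), whereas Clca3, a secreted protein of the same mucus, had 4474, 6550, 6165 and 6197 CPM (0.55). Enteroendocrine genes had a median of -0.52 with 4 of 21 kept members above 0, and 1 was past the rule. That gene, Nts, encodes neurotensin and had 18.1, 7.79, 5.82 and 10.6 CPM (-1.22). The granule protein gene Chgb had 142 and 89.0 CPM (-0.67), while Insl5, a hormone of distal colonic L cells, had 39.8 and 69.5 CPM (0.80). Both of these were chosen after their values were seen. Paneth cell genes such as Ang4 and Reg4, which goblet-lineage cells of the colon also express, were above 0 in 5 of 5 kept members (median 0.83), with 7 of 12 listed below the expression limit.

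Crypt cells divide, and no cell cycle gene was past the rule. All 17 genes of G2 and mitosis had negative ratios, from -0.56 to -0.17 with a median of -0.42. All 6 genes of the MCM helicase, which licenses DNA for replication, had positive ratios, from 0.16 to 0.41 with a median of 0.31. Mki67, a marker of dividing cells, had 148, 111, 118 and 98.9 CPM (-0.41), and Pcna, the replication clamp, 109, 122, 112 and 112 CPM (0.15). Over the whole list of 30 the median was -0.21 and 11 were above 0. The subunits of ribonucleotide reductase, which makes DNA precursors, had negative ratios (Rrm1 -0.04, Rrm2 -0.18). These groups were chosen after the values were seen. Markers of crypt stem cells had a median of -0.01 over 16 members.

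Peroxiredoxins and glutathione peroxidases remove peroxides, and 1 of 20 genes on a list of these, superoxide dismutases, catalase and thioredoxins was past the rule. Prdx6, which also acts as a phospholipase, had 792 CPM in the untreated library and 2242, 2387 and 1660 CPM in the PBS, E. coli and LGG libraries, a PBS ratio of 1.5 (1.48 to 1.52). The other peroxiredoxin genes were between 0.05 and 0.22, and Gpx2, the glutathione peroxidase of gut epithelium, chosen after its values were seen, was at 0.62 (216 and 331 CPM). The median of the 20 genes was 0.11. Metallothioneins bind zinc, and Mt2 had 74.9, 34.8, 55.0 and 66.0 CPM (-1.11), while its neighbour Mt1 had 154, 150, 178 and 202 CPM (-0.04). Mt3 was at -0.09, and of 11 kept metallothionein and zinc transporter genes 10 had negative ratios (median -0.09).

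Among the coding genes ranked highest in the PBS library by the interval bound nearest 0, several belong to none of the groups above. Casp14, the caspase of cornifying epithelium, had 14.4, 47.3, 51.1 and 28.2 CPM in the untreated, PBS, E. coli and LGG libraries (1.71, 1.54 to 1.89). Ccbl1, which encodes a kynurenine aminotransferase, had 33.6, 103, 104 and 90.8 CPM (1.62), and Pla2g4f, a cytosolic phospholipase A gene, 10.3, 31.3, 35.2 and 19.8 CPM (1.60). For all 3 the untreated library was lowest, and for Casp14 and Pla2g4f the LGG library lay between it and the others. Chrdl2, a secreted antagonist of bone morphogenetic proteins, had 2.49, 10.97, 4.54 and 6.39 CPM (2.13), so the PBS library was highest. At higher abundance, and chosen after their values were seen, were Mptx1, a mucosal pentraxin (661, 1491, 1371 and 1293 CPM, 1.17), and Tgm3, a transglutaminase (551, 1131, 1412 and 983 CPM, 1.04). Upp1, the uridine phosphorylase chosen in the same way, had 26.6, 71.5, 75.9 and 58.0 CPM (1.43).

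Fatty acid oxidation in colonocytes is driven by PPAR factors. Of 29 kept PPAR targets and oxidation genes, 4 were lower past the rule and 8 had a ratio above 0 (median -0.16). Pdk4, a kinase that shuts off pyruvate dehydrogenase, had 13.1, 4.86, 6.13 and 6.39 CPM in the untreated, PBS, E. coli and LGG libraries (-1.43). Vnn1, a pantetheinase (-1.58), and Acaa1b, a peroxisomal thiolase (-1.35), were also past the rule. With library totals for scaling 3 of the 29 were above 0. Cpt1a, the carnitine transferase that admits fatty acids to mitochondria, was at -0.08 and Acadm, an acyl-CoA dehydrogenase, at -0.20, both chosen after their values were seen.

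Glycolysis genes had a median of 0.23, with 17 of 20 above 0 and none past the rule. Ldha, lactate dehydrogenase, was at 0.48, Pkm, pyruvate kinase, had 1110 and 1437 CPM (0.37), and Gapdh 1093 and 1383 CPM (0.34). Genes of the cholesterol pathway were alike in direction, with 24 of 24 above 0 and a median of 0.33, none past the rule. With plain library totals for scaling 21 of the 24 were above 0. Srebf2, the transcription factor that drives the pathway, had 272 and 280 CPM (0.04), a ratio whose sign was negative with library totals. Fbp1, a gluconeogenic phosphatase, was lower, with 1.61 and 0.623 CPM (-1.34, -2.52 to -0.36), and its interval is wide because it rests on 46 and 10 counts.

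Enzymes that add sugar or sulphate to drugs and hormones, and esterases, counted 4 lower and none higher of 25 kept, with 9 above 0 and a median of -0.20. Ugt8a, a ceramide galactosyltransferase gene, had 4.62, 1.12, 1.51 and 2.05 CPM (-2.02). Ces1g, a carboxylesterase, had 51.4, 19.9, 19.0 and 28.0 CPM (-1.37), and the 4 kept Ces1 genes were all below 0 (median -0.49). Ugt2b5 (-1.18) and Ugt2b36 (-1.19), 2 glucuronosyltransferases with similar sequences between which reads may be split, were the others past the rule. Of 22 kept cytochrome P450 genes 1 was past the rule, Cyp4b1, with 80.6 and 40.0 CPM (-1.01), and the list median was -0.01 with 10 above 0, or 6 with library totals. Cyp2c55, chosen after its values were seen, had 358, 187, 154 and 269 CPM (-0.94), and Cyp2c68, chosen likewise, was at 0.79, so members of 1 subfamily lay on both sides. Slc51a, a subunit of the transporter that exports bile acids into blood, had 99.8, 38.1, 28.9 and 53.2 CPM (-1.39) and was the 1 bile acid gene of 9 past the rule.

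Protein folding genes of the endoplasmic reticulum were above 0 in 20 of 20 members, or 18 with library totals for scaling. Their median was 0.33 and none was past the rule. Calr, a calcium-binding chaperone, had 626, 908, 840 and 854 CPM (0.54), and Pdia3, a disulphide isomerase, 578, 738, 707 and 751 CPM (0.35). Heat shock genes, cytosolic and mitochondrial, had a median of 0.13 with 12 of 16 above 0. Hspa8, a constitutive chaperone, had 1604 and 1676 CPM, a ratio (0.06) whose sign depended on the scaling. Genes that glucocorticoids induce had a median of 0.05 over 16 members with none past the rule. Among them Sgk1, a kinase that also regulates the sodium channel, was at 0.59 and Cdkn1a at 0.09. Immediate early genes had a median of 0.03 over 23 members, and the sign of this median and of the glucocorticoid median was reversed with library totals. Egr1, a zinc finger factor of that list chosen after its values were seen, had 55.3, 29.5, 23.2 and 27.3 CPM (-0.91).

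The genes named here as past the rule on the immune lists were at low levels, below 10 CPM in both libraries. Class II antigen presentation genes were above 0 in 12 of 12 members (median 0.32), or 11 with library totals for scaling. The 1 past the rule was H2-Ob, which modulates peptide loading in B cells, with 4.27, 9.22, 8.68 and 6.56 CPM (1.11). B cell and follicle markers were above 0 in 21 of 22 kept members with a median of 0.65, 2 higher and 1 lower past the rule. Fcer2a, the low-affinity IgE receptor, had 2.35 and 6.11 CPM (1.37), Cr2, the complement receptor of follicular cells, 2.31 and 4.86 CPM (1.07), and Ccr7, a homing receptor, 2.07 and 0.997 CPM (-1.04). Plasma cell markers had a median of 0.16 over 12 kept members, 10 of them above 0, with ratios from -0.58 to 1.78. The 2 past the rule, Derl3 (1.78) and Mzb1 (1.33), rest on 12 and 18 counts in the untreated library. Both were under the expression limit of 1 CPM there.

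Interferon-stimulated genes had a median of 0.25 with 28 of 34 above 0 and 1 higher, the chemokine gene Cxcl10, on 22 counts in the untreated and 26 in the PBS library (0.771 and 1.62 CPM). Among 19 kept cytokine and NF-kB genes 1 was past the rule, Ccl7, a monocyte chemokine, with 0.701 and 1.99 CPM (1.48), and the median was 0.10. Cxcl10 and Ccl7 were both under the expression limit of 1 CPM in the untreated library and passed it through the gavaged libraries. Antimicrobial genes of the epithelium had none of 16 past the rule. Saa1, an acute phase protein made by colon epithelium, had 954, 1698, 1663 and 1549 CPM (0.83), and Pigr, the receptor that carries IgA to the lumen, was at 0.28. Markers of macrophages (median 0.01, 18 members) and of T cells (0.11, 13 members) were near the median of all genes.

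Connective tissue and neural genes had lower ratios as lists. Of 30 fibroblast and collagen genes 3 were above 0 (median -0.28) and 2 were lower past the rule, both of elastic fibres. Eln, elastin, had 103, 51.4, 50.1 and 42.9 CPM in the untreated, PBS, E. coli and LGG libraries (-1.002), and Lox, the oxidase that cross-links it, 13, 5.17, 4.99 and 4.65 CPM (-1.33). Fbn1, a fibrillin chosen after its values were seen, was at -0.71, and Fn1, fibronectin, chosen in the same way, at 0.35. Of 20 smooth muscle markers 2 were above 0 (0 with library totals, median -0.13), of 21 enteric neuron markers 1 (median -0.47), of 11 glial markers 2 (median -0.26) and of 20 endothelial markers 3 (median -0.17), with none past the rule. Uchl1, a deubiquitinase of neurons, had 33.0, 22.4, 21.4 and 27.0 CPM (-0.56), and Myh11, the smooth muscle myosin, 2929, 2487, 2303 and 2313 CPM (-0.24). Thbs4, a matrix glycoprotein on the list for interstitial cells of Cajal, went the other way with 165, 398, 421 and 316 CPM (1.27), while Kit, the defining receptor of those cells, chosen after its values were seen, was at -0.48.

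Adamts4, a protease that cuts aggrecan and versican, had 4.55 CPM in the untreated library and 0.499, 0.551 and 0.444 CPM in the PBS, E. coli and LGG libraries. The ratio of -3.14 (-4.43 to -2.17) rests on 130 and 8 counts, and the gene passed the expression limit through the untreated library. Of 24 kept genes for Adamts and other matrix proteases and antagonists, 1 was lower (Adamts4) and 1 higher (Chrdl2) past the rule, with a median of -0.06. Fst, follistatin, which binds activins, had 9.63, 3.37, 3.37 and 4.78 CPM (-1.51), and Osr2, a zinc finger factor of mesenchyme, 57.0, 22.8, 17.1 and 30.1 CPM (-1.32). In all 3 the untreated library was the highest.

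Genes of other tissues were measured at low levels. Of 32 listed pancreatic acinar genes 21 were kept, and 12 of these were under 1 CPM in the untreated library and passed the expression limit through the gavaged libraries. The count of 13 higher members and the median of 1.68 are therefore partly set by that limit, and 2 of the 13 were at or above 1 CPM in the untreated library. Pnlip, pancreatic lipase, had 0.140 CPM untreated and 2.87, 12.7 and 6.60 CPM in the PBS, E. coli and LGG libraries, and Ctrb1, a chymotrypsinogen, 0.210, 4.42, 14.4 and 8.34 CPM. These are 4 and 46 counts for Pnlip and 6 and 71 for Ctrb1 in the untreated and PBS libraries. For Cpa1 and Try4 the untreated library held 2 counts each, and their ratios of 4.40 (2.76 to 7.85) and 4.30 (2.65 to 7.75) are known only within those intervals. The summed level of the list, 4026 CPM untreated and 5011 CPM with PBS, was mostly that of Zg16 (2911 and 3697 CPM), a secretory granule lectin that goblet cells also make. Reads of the trypsin genes Try4 and Prss2 may be split between near-identical copies. Erythroid genes had a median of -0.87 over 11 kept members and summed levels of 149 and 121 CPM in the untreated and PBS libraries. Hbb-b1 and Hbb-bs (both -1.06) cover the same locus and count the same reads, with 11.4 CPM untreated and 5.48 and 5.42 CPM with PBS. Hbb-b2 and Hbb-bt had equal ratios (-0.87) and may share reads as well, and the list median is that repeated value. Adipocyte markers were above 0 in 3 of 18 (median -0.30), and 5 of 14 liver markers were kept (median 0.09). The part of pancreatic, blood or fat RNA in other ratios was not tested.

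Ribosomal and structural RNA genes were higher in the PBS library. Rn45s, the ribosomal RNA precursor and the gene past the rule with the highest mean CPM, had 2360 CPM in the untreated library and 12740, 5731 and 11566 CPM in the PBS, E. coli and LGG libraries (2.43), which is 0.247% and 1.255% of all counts in the untreated and PBS libraries. Lars2, a mitochondrial leucyl-tRNA synthetase gene, had 487, 2398, 1085 and 1733 CPM (2.30), and the RNA components of the processing enzymes RNase MRP and RNase P, Rmrp (1.86) and Rpph1 (1.80), followed the same direction. The PBS library was highest for Rn45s and Lars2, and the LGG library for Rmrp and Rpph1. The list of these RNAs also holds the coding gene Lars2. Of its 6 kept genes 4, Lars2 among them, were higher past the rule, and the lowest ratio was 0.28. In all genes 16 of the 96 higher and 7 of the 113 lower were non-coding. Of the 14450 members, the coding genes made up 4 groups of 3416 each by mean CPM, and the others were non-coding. Non-coding genes were thus a larger share of the higher genes than of all members, and a similar share of the lower genes. Nuclear genes of oxidative phosphorylation (median 0.08, 50 members) and cytosolic ribosomal protein genes (0.05, 54 members) had no member past the rule. The part of ribosomal RNA in the other ratios was not tested. Leaving Rn45s and Lars2 out of the scaling gave 96 higher and 114 lower genes, which concerns the scaling factors alone.

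**Figure D5:**
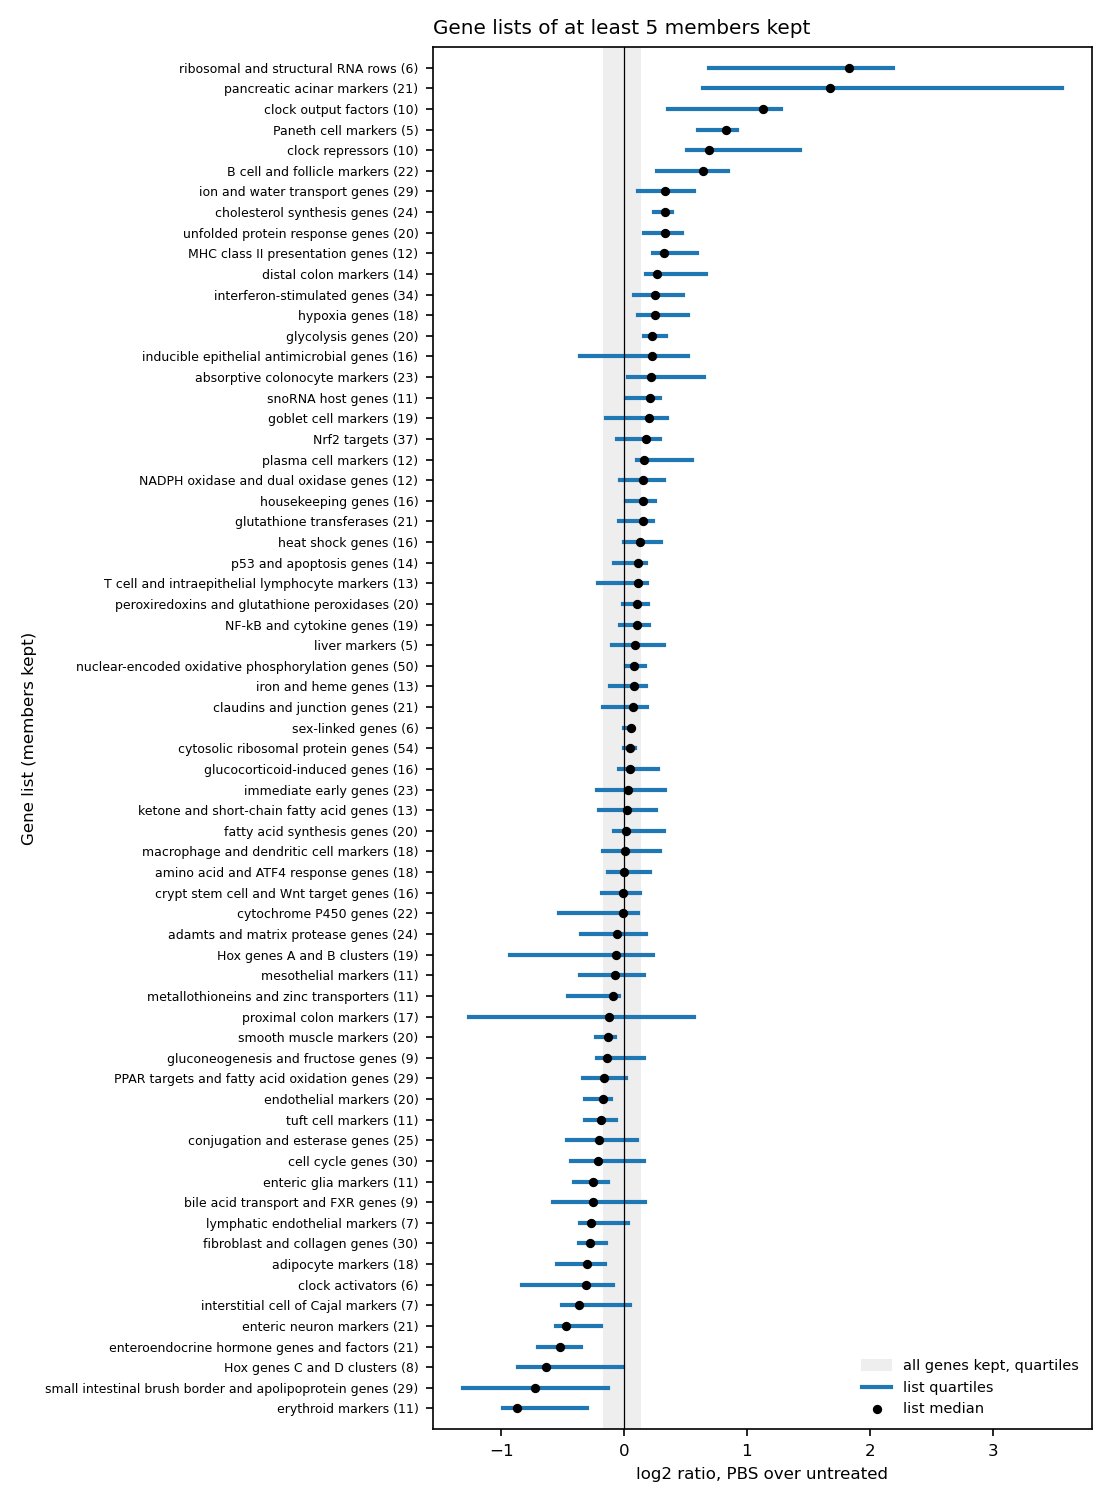
Each line is a gene list with at least 5 kept members (their number in brackets), with its median log2 ratio of PBS over untreated (point) and its quartiles (bar); the grey band spans the quartiles of all genes, -0.17 to 0.13. Clock output genes (1.13) lie to the right of the band, as do acinar genes (1.68), many of which were kept through the gavaged libraries. Erythroid genes (-0.87), some of which count the same reads, and small intestinal genes (-0.72) lie to its left.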

How the data were processed

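RNA-seq of 4 colon libraries was used, 1 per condition. Per the labels' protocols, libraries were made with a TruSeq RNA v2 kit (Illumina) from TRIzol extracts treated with DNase on columns. HOMER and TopHat2 with mouse build mm9 are named in the submitters' processing notes. The sources used here do not state their versions, or whether counting used strand. Expected counts in steps of 0.5, with mm9 coordinates printed as listed, form the table that the authors deposited, and were rounded to whole numbers. Of 24016 genes, 390 have several copies in the genome, whose reads are uncertain.

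Libraries were scaled by trimmed mean of M-values (TMM), run in R 4.3.3 with edgeR 4.0.16 (factors 1.05, 0.985, 0.989 and 0.979 for untreated, PBS, E. coli and LGG). Log2 ratios took a prior of 0.5 counts, and 95% intervals came from the exact conditional binomial (Clopper-Pearson), computed with scipy 1.17.1, numpy 2.4.6 and pandas 2.3.3 under Python 3.11.15, and drawn with matplotlib 3.10.9. Intervals and limits cover counting error only, since reads copied by PCR without molecular identifiers do not each stand for a molecule. The procedure was checked on simulated data. No p-value was computed.

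The members, the 70 gene lists, the size rule and the naming rule were chosen with earlier results of these data known. The rule named the 15 higher and 15 lower coding genes whose interval bound nearest 0 was largest, up to 6 members past the rule per list or its 3 most abundant, and clock, sex-linked, metallothionein and Hox genes. Several genes named by it are not reported here. Alternatives were DESeq2 1.42.0 size factors, library totals, upper-quartile factors, other expression limits, a prior of 5 counts, a 1.5-fold threshold, Rn45s and Lars2 left out of scaling, and rounding down.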

Additional observations from a re-analysis of the deposited data

How the results depend on the processing

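Without an expression limit 153 genes were higher and 205 lower past the size rule, with a mean CPM of at least 5 there were 46 and 39, and with a 1.5-fold threshold 342 and 513. With DESeq2 size factors the counts were 96 and 113, with upper-quartile factors 96 and 114, with a prior of 5 counts 79 and 88, and with counts rounded down instead of to the nearest whole number 94 and 117. Library totals in place of TMM gave 73 higher and 156 lower genes, so 31.9% instead of 45.9% of the calls were higher, 186 genes were shared, and the median of all genes moved to -0.09. On the lists or among the ranked coding genes, 82 genes were past the rule. Of these, 3 were no longer past it with library totals and 5 with a prior of 5 counts. With a mean CPM of at least 5, 50 of them were still in the analysis. No ratio of these 82 genes changed sign under these settings. Named genes that were neither on a list nor ranked, such as Isx and Tgm3, were not checked in this way. List medians near 0, among them those of immediate early, oxidative phosphorylation and ribosomal protein genes, were negative with library totals. No paired analysis was possible because each group has 1 library, and no replicate could be left out. Depth limits what can be said of genes at the 3-count limit, which is 0.187 CPM in the PBS library.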

Other observations

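Genes of retinoid and calcium handling, chosen after their values were seen, lay on both sides. Cyp26b1, which degrades retinoic acid, had 6.69, 2.37, 2.69 and 1.74 CPM in the untreated, PBS, E. coli and LGG libraries (log2 ratio of PBS over untreated -1.49), and the retinol dehydrogenase genes Rdh1 (3.08 and 1.18 CPM, -1.37) and Rdh16 (16.3 and 36.3 CPM, 1.15) differed in direction. Trpv6, an apical calcium channel, had 1.86, 5.67, 3.61 and 2.32 CPM (1.60, 1.11 to 2.13), so the PBS library was highest, while S100g, the calcium-binding protein of the same route, had 7.29, 3.86, 1.62 and 5.13 CPM (-0.91). Prkg2, a cyclic GMP-dependent kinase of the epithelium, had 60.9, 27.5, 21.7 and 37.7 CPM (-1.14). Muc1, a membrane mucin, had 8.76, 19.2, 16.7 and 13.2 CPM (1.13), and Ctse, cathepsin E, 21.0 CPM untreated and 43.0 CPM with PBS (1.03). Of the 209 genes past the size rule, 132 were on none of the 70 lists.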
